A study of Mus musculus with 6 samples.

Results

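Alveolar type 2 epithelial cells (AEC2s) were examined as 1 gated population within dissociated mouse lung. A cell barcode was kept when it held at least 500 genes, at least 1000 unique molecular identifiers (UMIs, each standing for 1 captured transcript), and under 15% of its UMIs from mitochondrial genes. A kept barcode was counted as an AEC2 when at least 3 of the 4 genes Sftpc, Lamp3, Slc34a2, and Etv5 had at least 1 UMI and Ptprc, Cdh5, Col1a2, and Foxj1 had 0 UMIs. The latter 4 genes mark leukocytes, endothelium, fibroblasts, and ciliated cells. The members were thus chosen by the counts of these 8 genes, whose levels in AEC2s against other barcodes are the gate itself and not a finding. In all, 11414 of 44096 kept barcodes (25.9%) were members, 7238 of them in control libraries and 4176 in Zip8 knockout libraries.

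The libraries were single-cell 3′ libraries of the 10x Genomics type, made from CD45- lung cells of C57BL/6 mice by magnetic enrichment. There were 4 libraries labelled control and 2 labelled Zip8 knockout, called Zip8AEC2 after the study's name for the mice. The question behind the comparison is what loss of the zinc importer ZIP8, encoded by Slc39a8, does to AEC2s. Zip8AEC2 mice carry a tamoxifen-inducible SFTPC-CreER allele, a Rosa26-tdTomato reporter, and Zip8 fl/fl, so that the SFTPC promoter decides where Cre acts. The mice were 10 to 12 weeks old and were studied 2 weeks after 4 doses of tamoxifen. Controls were littermates. The study's methods name comparison mice with SFTPC-CreER and the reporter for organoid cultures, but which alleles the control mice of these libraries carried is not given in the sources used here. Deletion of Zip8 and presence of the Cre and reporter alleles therefore cannot be told apart in any difference between these groups. The labels do not say that each library came from a separate mouse, so p-values measure the spread between libraries, which may be partly technical.

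AEC2s are the surfactant-producing cells of the alveolus and also serve as its progenitors. They store surfactant lipids and the hydrophobic proteins SP-B and SP-C in lamellar bodies, which the lipid transporter ABCA3 fills and which are secreted into the airspace to lower surface tension. The collectins SP-A and SP-D bind microbes, and AEC2s also make lysozyme and display class II histocompatibility molecules. NKX2-1, FOXA1, FOXA2, and CEBPA are transcription factors known to maintain this programme, and FGF signalling acts partly through ETV5.

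The 4 control libraries held 14675, 19998, 17725, and 14816 barcodes with 105774150, 114018446, 118771907, and 93852253 UMIs, and the 2 Zip8AEC2 libraries held 13990 and 7374 barcodes with 107957330 and 103337822 UMIs. Kept barcodes numbered 7301, 9507, 7366, and 8679 in control libraries 1 to 4 and 5903 and 5340 in Zip8AEC2 libraries 1 and 2. AEC2s numbered 2058, 649, 1363, and 3168 in the controls and 2501 and 1675 in the Zip8AEC2 libraries, so that control library 2 gave the fewest. The median AEC2 held 11939.5, 13929, 13683, and 8906 UMIs in the controls and 12119 and 13079 in the others. Summed over AEC2s, a library gave between 8722626 and 36696425 UMIs. A Ptprc UMI was found in 0.131% to 0.740% of kept barcodes per library.

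The share of AEC2s among kept barcodes was 28.2%, 6.83%, 18.5%, and 36.5% in control libraries 1 to 4 and 42.4% and 31.4% in Zip8AEC2 libraries 1 and 2. Control library 4 lay between the Zip8AEC2 libraries, so the groups overlapped. The means were 22.5% ± 12.8 (SD, n = 4) and 36.9% ± 7.78 (SD, n = 2), and the difference of 14.4 percentage points was within the spread of the libraries (exact permutation test over 15 arrangements, two-sided, p = 0.267). With 4 against 2 libraries this test cannot give a p under 0.0667. The share also depends on how each lung was dissociated and enriched, which was not tested.

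The label of the population was checked against marker genes outside the gate. Summed over 10 such AEC2 genes (Sftpa1, Sftpb, Sftpd, Abca3, Napsa, Lpcat1, Cxcl15, Hc, Lyz2, and Scd1), the level was 66256, 68140, 64725, and 74204 plain CPM in AEC2s of control libraries 1 to 4 and 67315 and 71690 in Zip8AEC2 libraries 1 and 2. Plain CPM are the counts of a gene summed over the cells and scaled by all UMIs of those cells. The defining markers of leukocytes (Ptprc), endothelium (Cdh5), and ciliated cells (Foxj1) were at 0 by the gate. Outside the gate genes, Cd3e of T cells was also at 0. The endothelial list of 6 genes summed to 13.6 to 28.9 plain CPM over the 6 libraries, led by Egfl7, and the leukocyte list of 10 genes summed to 4.28 to 8.61, led by Cd68. The ciliated list summed to 86.8 to 129.9, the basal and goblet list to 63.9 to 304.9, the fibroblast list to 66.9 to 312.2, and the alveolar type 1 list to 983.5 to 1310, led by Ager. The erythroid list ran from 14.7 in control library 3 to 2424 in control library 4, led by Hbb-bs.

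Markers of club cells, the secretory cells of the small airways, had the highest sum among the other cell types. The 6 club genes summed to 97521, 64101, 139184, and 82078 plain CPM in control AEC2s and to 175350 and 137203 in Zip8AEC2 AEC2s, almost all of it Scgb1a1. Every AEC2 held a Scgb1a1 UMI, and so did 99.8% to 100% of cells in the endothelial and fibroblast gates at 2000 UMIs per cell, so a single UMI of this gene marked no cell type here. Such shares were taken after each cell was thinned at random to 2000 UMIs, which left out 50 to 142 shallower AEC2s per control library and 131 and 19 in the Zip8AEC2 libraries. A minority of members, 1304 of 11414 (11.4%), took over 10% of their UMIs from Scgb1a1. They made up 7.68%, 14.0%, 22%, and 7.2% of AEC2s in control libraries 1 to 4 and 16.2% and 7.34% in Zip8AEC2 libraries 1 and 2. Only 79 members lay between 5% and 15%.

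These Scgb1a1-rich members were led by genes that included Tff2, Scgb3a1, Scgb3a2, Muc5b, Lrrc26, and Reg3g, most of them known from airway secretory cells. Their Sftpc level was 12577, 14952, 11403, and 10970 plain CPM in the controls, against 177609, 181299, 197224, and 191482 in the remaining members. In Zip8AEC2 libraries 1 and 2 it was 5128 and 5832 against 104273 and 107707. In Zip8AEC2 library 2 the median Scgb1a1-rich member took 0.0782% of its 51641 UMIs (also a median) from Sftpc. The remaining members there had medians of 10.8% and 12943 UMIs. In the controls Lamp3, Slc34a2, and Etv5 likewise stood at 0.0569 to 0.119 of the level in the remaining members. Per library, 62.7% to 89.0% of the Scgb1a1-rich members held just 3 of the 4 gate genes. These 4 genes chose the members, so their levels are a description. Outside the gate, the level in control Scgb1a1-rich members over that in the remaining members was 0.163 to 0.203 for Abca3, 0.175 to 0.211 for Sftpb, 0.138 to 0.237 for Sftpa1, and 0.217 to 0.270 for Nkx2-1. The genes called below are given with and without this minority. Elsewhere its members are counted as AEC2s by the gate, airway secretory genes included, unless they are said to be left out. The limit of 10% was set after the values were seen.

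Cells on either side of the marker limit are described without a test, since the surfactant sum includes the gate gene Sftpc. Members with all 4 gate genes (1876, 526, 1092, and 2744 cells in the controls, 2125 and 1560 in the Zip8AEC2 libraries) took 20.2%, 21.2%, 21.9%, and 22.4% of their summed UMIs from the surfactant protein genes Sftpa1, Sftpb, Sftpc, and Sftpd in the controls. Those just inside the limit, with 3 of 4, took 3.34%, 3.97%, 2.37%, and 6.41%, and barcodes just outside it, with 2 of 4 and no exclusion UMI, took 1.46%, 0.910%, 0.923%, and 1.15%. Barcodes with at least 3 gate genes but 1 UMI of an exclusion gene took 10.0% to 14.7% in the controls and were not counted as members. A Sftpc UMI was not particular to AEC2s. It was found in 67.2% to 98.1% of control fibroblast-gate cells and 78.9% to 100% of control endothelial-gate cells at 2000 UMIs per cell. A gate that asked for Lamp3, Slc34a2, and Etv5 together, without Sftpc, picked the same number of cells in every library as a gate on all 4 genes, so all its cells held a Sftpc UMI. The members with just 3 of the 4 genes therefore all held Sftpc, and without it they would not have been members.

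**Figure D1:**
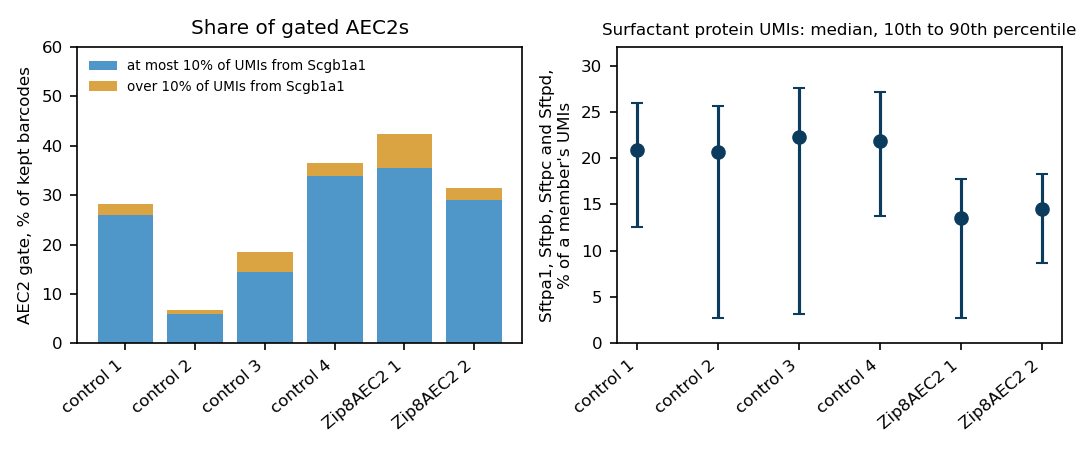
Left, AEC2s as a percent of kept barcodes in each of 6 libraries, with bars divided into members at or under and over 10% of UMIs from Scgb1a1; right, the percent of a member's UMIs from Sftpa1, Sftpb, Sftpc, and Sftpd, with the point at the median and the line from the 10th to the 90th percentile over members. Shares ran from 6.83% in control library 2 to 42.4% in Zip8AEC2 library 1, and the 2 Zip8AEC2 medians, 13.6% and 14.5%, lay under all 4 control medians.

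The baseline AEC2 programme was described in the controls. Against all other kept barcodes, the 20 genes outside the gate with the highest median fold over the 4 control libraries included Lyz1, Nrn1, Tinag, Mlc1, Sgpp2, Acoxl, Lgi3, Napsa, Hc, Egfl6, Lyz2, Scd1, Cst8, Bex2, Lpcat1, Bex4, S100g, H2-Aa, and Rbpjl. Only genes at 50 plain CPM or more in AEC2s of every control library were ranked. Because the same counts chose the cells, these folds are a description and carry no test. The median fold over the 20 genes was 3.96, 11.2, 7.80, and 4.89 in control libraries 1 to 4. The other kept barcodes still included cells with AEC2 transcripts that failed on an exclusion gene, and against kept barcodes with at most 1 gate gene the median fold was 61.1, 89.0, 51.5, and 42.2.

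Of these genes, Napsa, Lpcat1, and Scd1 act on surfactant proteins or lipids. Napsa, an aspartic protease that processes surfactant protein precursors, was at 2172, 2117, 2001, and 2044 plain CPM in control AEC2s and at 31.4, 15.8, 28.0, and 33.9 in barcodes with at most 1 gate gene. Lpcat1, which makes the dipalmitoyl phosphatidylcholine of surfactant, was at 1537, 1476, 1226, and 1497 against 49.9, 30.0, 36.1, and 50.6. Scd1, the desaturase that makes monounsaturated fatty acids, was at 5111, 4930, 4217, and 6303 against 119.6, 79.0, 93.2, and 170.8. These genes were ranked by their fold in the same 4 control libraries, so their higher level in AEC2s follows from that choice and is not a finding.

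Lyz2, Hc, H2-Aa, and Lyz1 act in defence. Lyz2, one of the mouse lysozymes, was at 17969, 19703, 20503, and 21673 plain CPM in control AEC2s against 188.8 to 385.8 in barcodes with at most 1 gate gene. Hc, which encodes complement component C5, was at 1378, 1224, 1075, and 1311 against 9.30 to 25.1. H2-Aa, a chain of a class II histocompatibility molecule, was at 755.4, 785.1, 627.1, and 700.1 against 20.7 to 125.1, with the highest outside value in control library 4. Lyz1 was at 738.8, 884.6, 918.2, and 1469 plain CPM in control AEC2s, far under Lyz2. After thinning to 2000 UMIs per cell a Lyz1 UMI was found in 15.2%, 15%, 14.1%, and 22.2% of control AEC2s, against 96.4% to 97.8% for Lyz2. Without thinning the Lyz1 shares were 34.6%, 28.5%, 32.8%, and 41.8%. They thus depend on depth and do not show how many AEC2s express Lyz1. In control endothelial-gate cells, at median depths of 2478.5 to 4295 UMIs, the thinned Lyz1 share was 0.980% to 7.90%.

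**Figure D2:**
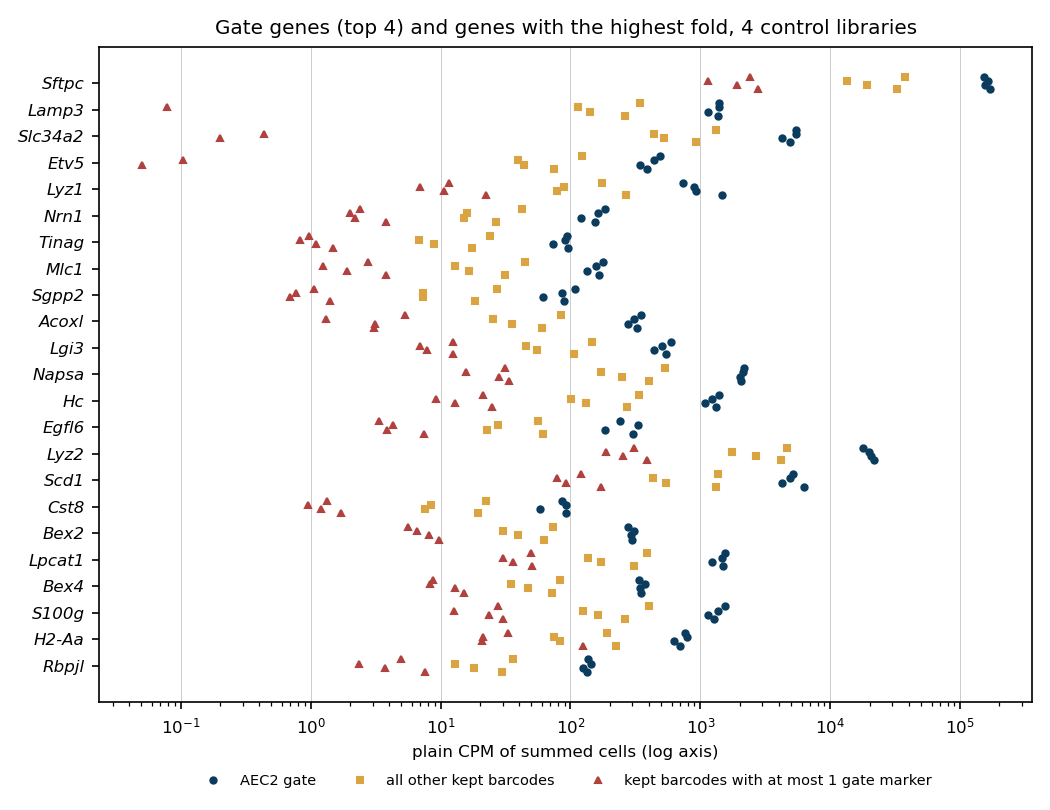
Levels of the 4 gate genes and the highest-fold genes named above in plain CPM (log axis) in AEC2s, in all other kept barcodes, and in kept barcodes with at most 1 gate gene, with 1 point per control library; values of 0 are not drawn. The AEC2 points of each gene lie together and to the right of both other sets, for Napsa between 2001 and 2172. The choice of cells and genes set this order.

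How many genes counted as AEC2-enriched depended on the comparison cells. Here a gene was counted when, in every control library, it was at 50 plain CPM or more in the AEC2s or in the comparison cells. The number of genes therefore changed with the comparison, and a gene could enter through the group where it was high, so these counts and the medians of lists are a description. Against all other kept barcodes, 9 of 2424 genes (0.371%) were at least 4-fold higher in every control library, namely Hc, Acoxl, Bex4, Egfl6, Napsa, Lyz1, Itih4, Lgi3, and Nrn1. Against barcodes with at most 1 gate gene, 158 of 3101 genes (5.1%) were at least 4-fold higher. The first count was 57 without control library 1, where the median fold of the leading genes was lowest. Without Scgb1a1-rich members it was 51, and 205 of 3204 when barcodes with at most 1 gate gene were also the comparison.

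Gene lists were read against this second background, in which the median gene stood at a fold of 0.708. Of surfactant protein and lamellar body genes, 10 of the 12 at the level limit were at least 4-fold higher, with a median fold of 33.4. Sftpa1 stood at 17735 to 21221, Sftpb at 7964 to 9449, and Sftpd at 3426 to 3714 plain CPM in control AEC2s, with median folds of 44.7, 41.9, and 34.3. Ctsh, a cathepsin that acts on surfactant protein precursors, had a median fold of 3.57, and Cd63, a general marker of late endosomes and lysosomes, one of 0.741.

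Lipid synthesis genes formed the next group. Of the fatty acid and phospholipid genes 12 of 23 were at least 4-fold higher, with a median fold of 5.19. Fasn, the fatty acid synthase, was at 475.5 to 674.9 plain CPM with a median fold of 20.2, and Fabp5, a fatty acid binding protein, at 1150 to 1617 with 21.3. Acly and Acaca, which supply the precursors of fatty acids, had median folds of 7.84 and 6.46.

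Transcription factors ranged from strongly enriched to low. Of the lung and AEC2 factors 4 of 13 were at least 4-fold higher. Nkx2-1 was at 261.7 to 362.8 plain CPM with a median fold of 10.1, Cebpa at 190.2 to 255.9 with 11.7, and Tfcp2l1 at 98.6 to 117.6 with 23.5. Foxa1 and Foxa2 had median folds of 5.07 and 5.29. Hopx, better known from alveolar type 1 cells, and Sox9, a factor of the embryonic lung tip, had median folds of 0.364 and 0.116.

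Ion transport, antigen presentation, and growth factor signalling genes were mixed. Of the ion and fluid transport genes 5 of 10 were at least 4-fold higher, among them Slc26a9, an anion transporter, with a median fold of 36.3, and Kcnj15, a potassium channel, with 37.0. Cftr, the chloride channel of cystic fibrosis, lay under the level limit at 30.0 to 43.5 plain CPM. Of the class II histocompatibility genes 3 of 6 were at least 4-fold higher in every control, with Cd74, the invariant chain, at 2474 to 2862 and a median fold of 38.1. Of the class I genes 0 of 7 were at least 4-fold higher, with a median fold of 0.576 beside 0.708 for all genes. Of the growth factor receptor and Wnt, Fgf, and Bmp signalling genes 2 of 18 were at least 4-fold higher and 3 at least 4-fold lower. Their median fold was 0.661, beside 0.708 for all genes. Fgfr2, a receptor for FGF7 and FGF10, had a median fold of 14.1, and Met, the receptor for hepatocyte growth factor, one of 10.7, whereas Fgfr1 had one of 0.0446.

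The nearest epithelial cells were described in the same libraries. The alveolar type 1 gate held 101 cells in all 6 libraries and the club gate 828. Ager, the receptor that marks type 1 cells, was also found outside their gate. It was at 951.9 ± 95.4 plain CPM (SD, n = 4) in control AEC2s and 1880 ± 1835 (SD, n = 4) in the club gate. In the type 1 gate it was at 16624 ± 6012 (SD, n = 4), a level that the choice of cells by Ager set in part. After thinning, an Ager UMI was found in 73.4% to 83.8% of control AEC2s against 2.45% to 11.1% of control endothelial-gate cells. Slc39a8 was at 203.8 ± 19.9 (SD, n = 4) in AEC2s, 439.6 ± 155.6 (SD, n = 4) in the type 1 gate, 87.5 ± 69.7 (SD, n = 4) in the club gate, 16.0 ± 4.60 (SD, n = 4) in the endothelial gate, and 37.8 ± 18.7 (SD, n = 4) in the fibroblast gate. The type 1 gate and the AEC2s did not overlap in Slc39a8, whereas the club gate overlapped them in 1 library, at 181.1 in control library 1 against an AEC2 minimum of 174.8. Both gates held transcripts known from other cells. Ager was at 4316 plain CPM in the club gate of control library 1, and Scgb1a1 at 262257 in the type 1 gate of control library 3. The type 1 gate held only 22, 7, 36, and 16 cells in control libraries 1 to 4. How far this shaped the Slc39a8 levels was not tested.

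The promoters of the programme genes were read for letters that are known to be bound by factors of the lung epithelium. The windows were the 250 bases before the start of each gene in RefSeq on GRCm38.p6, and 24 of the 32 gate, surfactant, and high-fold genes had one, with 25 windows in all. The core CTCAAG (on the other strand CTTGAG), found in known NKX2-1 sites, occurred in 3 of these 25 windows (12%), those of Sftpa1, Sftpb, and Tinag, and in 13.3% of all 32851 windows. The forkhead letters TGTTTAC, read as GTAAACA on the other strand, occurred in 3 of 25, those of Etv5, Lamp3, and S100g, and in 3.17% of all windows, and TGTTTGC, read as GCAAACA, in 3 of 25, those of Rbpjl, Sftpb, and Tinag, and in 4.30%. These motifs do not overlap each other in the windows printed. Of the surfactant and lamellar body genes, 3 windows are shown because each holds at least 1 of the motifs, with matches in capitals and bases read 5′ to 3′ along the gene's strand. They lie at chr6:72304360-72304609 (plus strand, Sftpb), chr14:41131538-41131787 (plus strand, Sftpa1), and chr16:19706366-19706615 (minus strand, Lamp3) of GRCm38.p6. The Sftpb window holds CTCAAG at 2 places and GCAAACA once.
Sftpb: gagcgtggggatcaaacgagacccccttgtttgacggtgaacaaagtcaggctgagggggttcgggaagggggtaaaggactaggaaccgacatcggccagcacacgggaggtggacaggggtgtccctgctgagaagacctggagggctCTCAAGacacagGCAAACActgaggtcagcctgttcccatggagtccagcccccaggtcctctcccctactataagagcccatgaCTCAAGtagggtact
Sftpa1: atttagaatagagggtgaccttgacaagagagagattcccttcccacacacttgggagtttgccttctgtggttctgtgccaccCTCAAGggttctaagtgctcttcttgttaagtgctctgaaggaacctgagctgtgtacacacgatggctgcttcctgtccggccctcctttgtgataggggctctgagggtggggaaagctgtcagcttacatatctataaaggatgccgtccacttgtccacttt
Lamp3: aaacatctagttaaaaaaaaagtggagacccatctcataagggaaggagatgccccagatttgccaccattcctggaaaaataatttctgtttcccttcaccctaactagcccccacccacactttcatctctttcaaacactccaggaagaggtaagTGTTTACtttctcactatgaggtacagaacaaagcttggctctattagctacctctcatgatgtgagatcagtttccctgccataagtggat
A match describes the letters only, and for CTCAAG the share among programme genes was no higher than among all genes.

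Between control libraries, AEC2s were mostly alike. Over 2173 genes at 50 CPM or more on average, the median SD of log2 CPM between the 4 controls was 0.080, and the 90th percentile was 0.18. CPM without the word plain are, from here on, scaled by edgeR with the trimmed mean of M values (TMM). The 10 genes that varied most were Hbb-bs, Hba-a1, Hbb-bt, Dmkn, Hspa1a, Hspa1b, Rpl29, Bpifa1, Chil1, and Retnla.

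They fell into a few kinds. The haemoglobin genes are known from red cells, and Hbb-bs was at 148.6, 120.3, 9.73, and 1411 CPM in AEC2s of control libraries 1 to 4 and at 67.3 and 53.8 in Zip8AEC2 libraries 1 and 2. Control library 4 stood far above every other library. The heat shock gene Hspa1a was at 17.0, 36.1, 338.1, and 163.1 CPM in the controls and 54.2 and 85.9 in the others, with control library 3 highest. Bpifa1, a secreted airway protein, was at 1421, 116.9, 720.6, and 475.9 against 313.4 and 224.9, and without Scgb1a1-rich members it fell to 9.35 to 156.1 in the controls.

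Chil1 and Retnla, secreted products of the chitinase-like and resistin-like families, varied in a different way. Chil1 (chr1:134182176-134190181, plus strand, GRCm38) was at 1136, 1023, 173.1, and 271.4 CPM in control libraries 1 to 4 and at 3546 and 1058 in Zip8AEC2 libraries 1 and 2. The controls formed a high and a low pair, and Zip8AEC2 library 2 lay within the high pair. After thinning, Chil1 was detected in 82.5%, 78.7%, 20%, and 30.6% of control AEC2s and in 92.5% and 81.5% of Zip8AEC2 AEC2s, against at most 5.26% of control endothelial-gate cells. In Zip8AEC2 libraries 1 and 2 the share was 15.4% and 4.32% in the endothelial gate and 13.5% and 3.44% in the fibroblast gate. The high value of library 1 was thus not confined to AEC2s. Retnla was at 39.1, 17.4, 101.7, and 99.8 CPM in the controls and at 2048 and 54.4 in the others, so that Zip8AEC2 library 1 stood alone. A Retnla UMI was also found in 16.0% of endothelial-gate cells of that library after thinning, against at most 1.75% in the controls. Rpl29, a ribosomal protein gene, was at 41.3, 33.4, 263.1, and 246.1 against 528.9 and 37.9. Neither Chil1, Retnla, nor Rpl29 separated the genotypes.

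**Figure D3:**
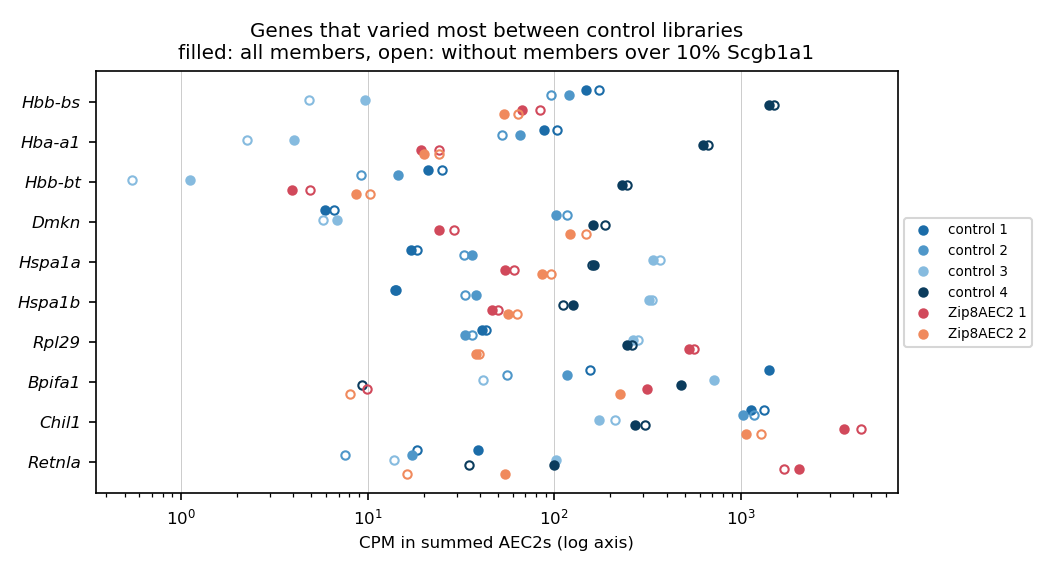
The 10 genes with the highest SD of log2 CPM over control AEC2s, in CPM (log axis), with 1 colour per library; filled points are all members and open points leave out those with over 10% Scgb1a1. Control library 4 is far to the right for Hbb-bs at 1411 CPM, and Zip8AEC2 library 1 for Retnla at 2048 CPM.

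The targeted gene did not separate the genotype labels. Slc39a8 (chr3:135825279-135888572, plus strand, GRCm38) was at 211.8, 208.4, 188.8, and 209.3 CPM in control AEC2s and at 195.4 and 195.3 in Zip8AEC2 AEC2s, on 18422 and 12359 UMIs. Control library 3 was the lowest of the 6 libraries, so the groups overlapped. The log2 fold change was −0.066 (SE 0.078, 95% confidence interval −0.24 to 0.11, adjusted p = 0.794 by edgeR; exact permutation test, p = 0.4). Without Scgb1a1-rich members it was 0.0027 (adjusted p = 0.997). At 2000 UMIs per cell a Slc39a8 UMI was found in 35.5%, 33.6%, 28.6%, and 35.8% of control AEC2s, in 34.3% and 38.4% of Zip8AEC2 AEC2s, and in 1.37% to 4.68% of control endothelial-gate cells. Counts of the 3′ end do not show which exons a transcript holds, so they check neither the deletion nor the labels, and directions are given between libraries as they are labelled.

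Across all genes, 5 of 13492 tested (0.0371%) differed between the genotypes in AEC2s at an adjusted p of 0.05 (edgeR), Esr1, Bmp1, and Gt(ROSA)26Sor higher and Sftpc and Spink5 lower in the Zip8AEC2 libraries. The 2 groups of libraries did not overlap for 2644 genes (19.6%), 9.51% of those tested being higher and 10.1% lower. The median log2 fold change was 0.00098, and 1400 genes had an unadjusted p under 0.05. Without Scgb1a1-rich members 8 of 13024 genes (0.0614%) passed, the same 5 and Cdkn1a, Phlda3, and 9030617O03Rik. The number of calls rested on the pair of Zip8AEC2 libraries. It was 205 (119 higher, 86 lower) without Zip8AEC2 library 2, with the remaining library assumed to vary like the controls, and 5 without library 1. DESeq2 made 84 calls (33 higher, 51 lower), all 5 of the above among them.

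Sftpc, the surfactant protein C gene, was the most abundant of the genes that differed. It was at 148792, 157327, 167592, and 170000 CPM in control AEC2s and at 76700 and 82567 in Zip8AEC2 AEC2s. Both Zip8AEC2 libraries lay far under every control. The log2 fold change was −1.01 (SE 0.083, 95% confidence interval −1.20 to −0.83, edgeR adjusted p = 0.00727), and −0.94 without Scgb1a1-rich members (edgeR adjusted p = 0.00706). In the single cell, Sftpc took a median of 17.9% ± 0.763 (SD, n = 4) of UMIs in control AEC2s and 10.3% ± 0.384 (SD, n = 2) in Zip8AEC2 AEC2s, and the exact permutation test gave its smallest possible p of 0.0667. A Sftpc UMI was found in 98.4% to 99.9% of AEC2s of each library at 2000 UMIs per cell. The gate set this share in part and it lay near its ceiling, so no conclusion is drawn from it. Sftpc is a gate gene. With members chosen by Lamp3, Slc34a2, and Etv5, which are the same cells as those with all 4 genes, the log2 fold change was −0.97 (edgeR adjusted p = 0.00588).

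The difference in Sftpc was not shown to be particular to AEC2s. Sftpc UMIs were also found in the endothelial and fibroblast gates, at 2343 ± 1259 and 1757 ± 486.4 plain CPM (SD, n = 4) in the controls, far under the AEC2 level. Between the genotypes the log2 fold change of Sftpc there was −0.70 (SE 0.45, edgeR adjusted p = 0.770) and −0.96 (SE 0.26, adjusted p = 0.443). The effect in AEC2s minus that in the endothelial gate was −0.46 (SE 0.39, edgeR adjusted p = 0.898), and minus that in the fibroblast gate −0.091 (SE 0.24, adjusted p = 0.964). How much of the Sftpc in these gates was free RNA was not tested.

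No other surfactant gene was called. Of 15 surfactant and lamellar body genes tested, 6 were higher and 9 lower in the Zip8AEC2 libraries, and the median log2 fold change was −0.037, near that of all genes. The list holds the gate genes Sftpc, Lamp3, and Slc34a2, whose levels the choice of members used. The 10 AEC2 markers outside the gate had a median of 0.021, with 5 higher and 5 lower and none called.

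Bmp1, a metalloprotease that trims procollagens, is the downstream neighbour of Sftpc. Bmp1 lies at chr14:70474558-70520234 and Sftpc at chr14:70520949-70524081 of GRCm38, both on the minus strand with 714 bases between them. Bmp1 was at 59.9, 61.5, 57.5, and 46.3 CPM in control AEC2s and at 141.7 and 170.1 in Zip8AEC2 AEC2s. All controls lay under both Zip8AEC2 libraries, and the log2 fold change was 1.47 (SE 0.12, 95% confidence interval 1.19 to 1.75, edgeR adjusted p = 0.00727), and 1.56 without Scgb1a1-rich members (adjusted p = 0.00341). In the endothelial gate its log2 fold change was 0.57 (edgeR adjusted p = 0.740) and in the fibroblast gate −0.72 (adjusted p = 0.392). The genotype effect in AEC2s minus that in the fibroblast gate was 2.20 (SE 0.19, edgeR adjusted p = 0.0367), and minus that in the endothelial gate 0.93 (SE 0.33, adjusted p = 0.509). Under 8 of 15 alternatives no gene was called in the comparison with the fibroblast gate, those with any 1 control left out among them.

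Esr1 and Gt(ROSA)26Sor are genes that the targeting alleles draw on. Esr1 encodes the oestrogen receptor, of which CreER contains the ligand-binding part, and Gt(ROSA)26Sor is the Rosa26 locus (chr6:113067428-113077333, minus strand) into which the reporter was placed. Esr1 was at 0.255, 0.330, 0.585, and 0.205 CPM in control AEC2s, on 28 UMIs in all, and at 16.6 and 18.6 in Zip8AEC2 AEC2s, on 1104 UMIs. The log2 fold change was 5.77 (SE 0.24, edgeR adjusted p = 9.07e-05). Without Scgb1a1-rich members Esr1 was at 0.0436, 0, 0.137, and 0.138 CPM in the controls and at 21.4 and 22.95 in the others, a log2 fold change of 7.79 (edgeR adjusted p = 5.19e-06), and over the 22 alternatives it ran from 4.93 to 7.79. With so few control UMIs the size of this fold depends on the fit and on the members. At 2000 UMIs per cell an Esr1 UMI was found in at most 0.152% of control AEC2s and in 3.92% and 4.23% of Zip8AEC2 AEC2s. The endothelial gate showed no such step, and the difference of genotype effects between AEC2s and that gate was 5.93 (SE 0.66, edgeR adjusted p = 0.00173). Against the fibroblast gate it was 5.66 (SE 0.64, edgeR adjusted p = 0.105), which did not pass. Gt(ROSA)26Sor was at 7.93, 6.48, 6.22, and 6.73 CPM in control AEC2s and at 16.0 and 17.2 in Zip8AEC2 AEC2s, with a log2 fold change of 1.26 (SE 0.11, edgeR adjusted p = 0.00816) and of 1.35 without Scgb1a1-rich members (adjusted p = 0.00341). With the replicate number as a block the log2 fold change of Gt(ROSA)26Sor was 1.18 and did not pass (edgeR adjusted p = 0.0575). Its effect in AEC2s was not shown to differ from that in the endothelial gate, by 0.67 (adjusted p = 0.779), or the fibroblast gate, by 0.60 (adjusted p = 0.563). Both genes separated the libraries as labelled, which Slc39a8 did not. Whether the Esr1 UMIs came from the gene itself or from the CreER allele was not tested.

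Spink5, an inhibitor of serine proteases known from skin, was the other gene that fell. It was at 51.2, 45.7, 45.1, and 48.5 CPM in control AEC2s and at 24.4 and 20.3 in Zip8AEC2 AEC2s, and the groups did not overlap. The log2 fold change was −1.09 (SE 0.098, 95% confidence interval −1.32 to −0.87, edgeR adjusted p = 0.00816), and −1.04 without Scgb1a1-rich members (adjusted p = 0.0213). A Spink5 UMI was found in 6.85% to 8.12% of control AEC2s and in 3.88% and 4.89% of Zip8AEC2 AEC2s at 2000 UMIs per cell, and in at most 0.189% of control fibroblast-gate cells.

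**Figure D4:**
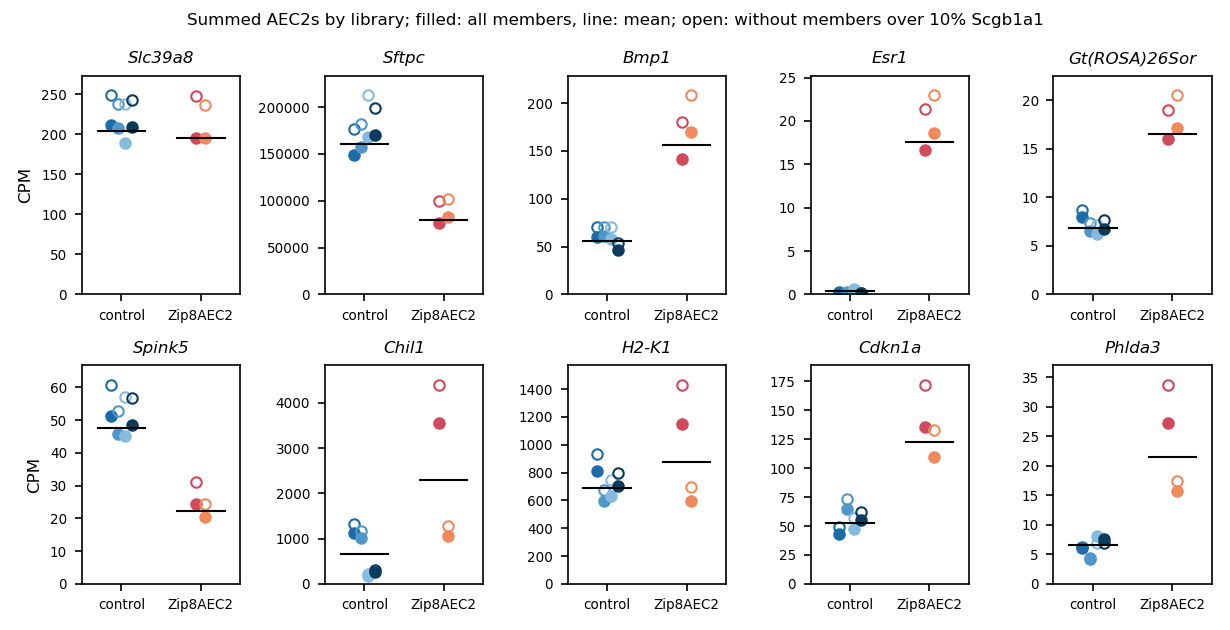
CPM of 10 named genes in AEC2s summed by library, with 1 point per library in its own colour for 4 controls and 2 Zip8AEC2 libraries; filled points are all members with the group mean as a line, and open points leave out members with over 10% Scgb1a1. Sftpc lies at 76700 and 82567 CPM in the Zip8AEC2 libraries, under all controls, whereas Slc39a8, Chil1, and H2-K1 overlap between the groups.

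Gene lists were compared between the genotypes by the same fit, and their counts stand beside those of all genes, of which 9.51% were higher and 10.1% lower without overlap. The senescence and p53 list had the most members apart by number, whereas the class II list had all 7 of its tested genes apart. Of 18 genes tested 14 were higher in the Zip8AEC2 libraries, 10 of them without overlap, none was called with all members, and the median log2 fold change was 0.24. Cdkn1a, the p21 inhibitor of cyclin-dependent kinases, was at 42.7, 64.5, 47.9, and 55.1 CPM in control AEC2s and at 135.4 and 109.8 in Zip8AEC2 AEC2s, a log2 fold change of 1.23 (SE 0.15, edgeR adjusted p = 0.0707) and of 1.34 without Scgb1a1-rich members (adjusted p = 0.0343). Phlda3, a p53 target that restrains AKT signalling, was at 6.18, 4.39, 8.08, and 7.67 against 27.2 and 15.7, with log2 fold changes of 1.67 (edgeR adjusted p = 0.153) and 2.04 (adjusted p = 0.0481). For both genes the Zip8AEC2 libraries lay above every control. Over the 22 alternatives Cdkn1a was called in 10 (highest edgeR adjusted p = 0.526) and Phlda3 in 8 (highest adjusted p = 0.921), and no gene of the list was called without Zip8AEC2 library 1.

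The p53 targets were also set against the other cells of the same libraries. The genotype effect in AEC2s exceeded that in the endothelial gate by 1.56 for Cdkn1a (SE 0.22, edgeR adjusted p = 0.00647) and by 1.71 for Phlda3 (SE 0.25, adjusted p = 0.00770), 2 of the 18 genes of 12970 (0.139%) called in that comparison. Against the fibroblast gate the differences were 1.41 (adjusted p = 0.333) and 1.53 (adjusted p = 0.522), and 2 of 14512 genes (0.0138%) were called, Bmp1 and Car3, a carbonic anhydrase, but none with any 1 control library left out. Other members of the list were Ccng1, at 27.8, 28.0, 25.9, and 28.3 CPM against 55.7 and 34.9, and Bax, a promoter of apoptosis, at 38.1, 36.7, 42.1, and 37.6 against 61.7 and 46.7. Neither was called (edgeR adjusted p = 0.371 for each), although the libraries did not overlap. Mdm2, Btg2, and Gdf15, also p53 targets, overlapped between the groups, and Trp53 itself had a log2 fold change of 0.081. With Zip8AEC2 library 1 left out 16 of the 18 genes were higher, and with library 2 left out 13 were.

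All 7 class II histocompatibility genes tested had higher values in the Zip8AEC2 libraries without overlap, but none was called, with a median log2 fold change of 0.29 and a lowest adjusted p of 0.371. Cd74 was at 2570, 2742, 2672, and 2590 CPM in control AEC2s and at 3427 and 2977 in Zip8AEC2 AEC2s, and H2-DMa, which loads peptides, at 57.1, 52.8, 54.5, and 59.6 against 75.8 and 70.8. Ciita, their transcriptional activator, was at 4.91, 4.28, 5.15, and 5.59 against 7.32 and 6.13.

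Class I and interferon genes depended on Zip8AEC2 library 1. Of the class I list, all 14 tested were higher, 3 without overlap, and the median was 0.32. H2-K1, a classical class I gene, was at 811.8, 599.2, 632.8, and 706.0 CPM in control AEC2s and at 1152.5 and 596.7 in Zip8AEC2 AEC2s, so that the groups overlapped (log2 fold change 0.35, SE 0.23, edgeR adjusted p = 0.620; exact permutation test, p = 0.533). Without Scgb1a1-rich members library 2 was at 697.9 CPM, within the control range of 671.4 to 934.3. Without Zip8AEC2 library 1 only 7 of the 14 were higher, with a median of −0.041. Of 18 interferon response genes 15 were higher with a median of 0.16, and without library 1 just 1 was, with a median of −0.27. Without library 2 the count was 17 and the median 0.49. No gene of either list was called with both libraries.

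Secreted defence genes depended in part on the same library. Of 27 tested 17 were higher in the Zip8AEC2 libraries, none without overlap, with a median of 0.22. The list holds airway genes such as Scgb1a1, and without Scgb1a1-rich members 15 of 25 were higher with a median of 0.065. Lcn2, a protein that binds bacterial siderophores, was at 403.2, 340.7, 457.2, and 428.2 CPM in control AEC2s and at 1892 and 371.9 in Zip8AEC2 AEC2s, and Cxcl5, a neutrophil chemokine, at 6.47, 4.28, 9.25, and 9.16 against 74.6 and 3.53. In each case library 1 was far above, and library 2 within or under, the control values. Other genes of the list went the other way. Lyz1 was at 507.1 plain CPM in library 1 against 738.8 to 1469 in the controls, and Chia1 at 260.5 against 329.7 to 440.5. Library 2 lay within the control range for both. A Lcn2 UMI was found in 71.1% of AEC2s of Zip8AEC2 library 1 at 2000 UMIs per cell, against 49.3% in library 2 and 36.5% to 48.2% in the controls. The log2 fold change of Chil1 was 1.82 (SE 0.74, 95% confidence interval 0.14 to 3.51, edgeR adjusted p = 0.458; exact permutation test, p = 0.2), and it was 0.70 without library 1 and 2.45 without library 2. Without library 1, 9 of 28 defence genes were higher, and without library 2, 20 were.

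Lipid genes had the same dependence. Of 29 fatty acid and phospholipid genes 21 were higher, 2 of them without overlap, with a median of 0.11 and none called. Scd1 was at 5006, 4723, 4554, and 6382 CPM in control AEC2s and at 11167 and 4692 in Zip8AEC2 AEC2s, and Fasn at 549.0, 529.2, 513.5, and 683.5 against 780.9 and 552.8. Library 2 lay within the control range for both genes. The count was 23 without library 2 and 9 without library 1.

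Of 30 growth factor and Wnt, Fgf, and Bmp signalling genes tested, 8 were higher, 3 of them without overlap, and 22 lower, 5 of them without overlap, with a median of −0.075. Bmp1 alone was called. Without Zip8AEC2 library 1, 13 of 31 were higher and 18 lower with a median of −0.022. Met was at 133.2, 139.1, 114.6, and 133.4 CPM in control AEC2s and at 89.4 and 111.1 in Zip8AEC2 AEC2s, and Spry2, a feedback inhibitor of FGF signalling, at 91.5, 121.5, 92.2, and 92.2 against 58.1 and 81.6. Fgfr2 was at 297.8, 277.8, 266.4, and 264.1 against 245.3 and 289.8 and overlapped. Of 17 ion and fluid transport genes 12 were lower with a median of −0.081. Scnn1b, a subunit of the epithelial sodium channel, was at 32.6, 20.9, 36.1, and 26.0 CPM against 57.5 and 40.8, but without Scgb1a1-rich members it was at 15.8, 15.3, 11.7, and 10.1 against 30.2 and 15.4, and the groups overlapped. None of the transport genes was called.

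Zinc and sirtuin genes, the study's subject, showed little. Of 11 zinc importers tested 6 were higher and 5 lower with a median of 0.019, and of 11 exporters and metallothioneins 5 were higher and 6 lower with a median of −0.020. Mt1, a zinc-induced metallothionein, was at 167.4, 260.4, 172.8, and 157.9 CPM in control AEC2s and at 197.7 and 187.0 in Zip8AEC2 AEC2s. Sirt1, the deacetylase, was at 24.7, 24.4, 26.7, and 31.1 against 26.8 and 29.6, with a log2 fold change of 0.070 (SE 0.11, edgeR adjusted p = 0.856). Of 15 sirtuin and NAD genes 11 were higher, 3 without overlap, with a median of 0.085. None of these genes was called.

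Cell state lists gave no call. Of the lung and AEC2 transcription factors 10 of 17 were higher with a median of 0.042, and Nkx2-1 was at 355.4, 289.1, 282.6, and 316.1 CPM in control AEC2s against 328.7 and 341.9. Alveolar type 1 genes split 9 higher to 7 lower and genes of the transitional state between both alveolar types 5 to 9, with Krt8 at 218.6, 249.7, 271.0, and 216.9 against 243.9 and 208.6. Proliferation genes split 11 to 5, but 14 of 16 were higher without Zip8AEC2 library 1 and 4 without library 2, and a Mki67 UMI was found in 0.338% to 0.702% of AEC2s per library at 2000 UMIs per cell. Immediate-early and heat shock genes split 4 to 12 with a median of −0.095, none without overlap, and 11 of 16 were higher without Zip8AEC2 library 1.

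**Figure D5:**
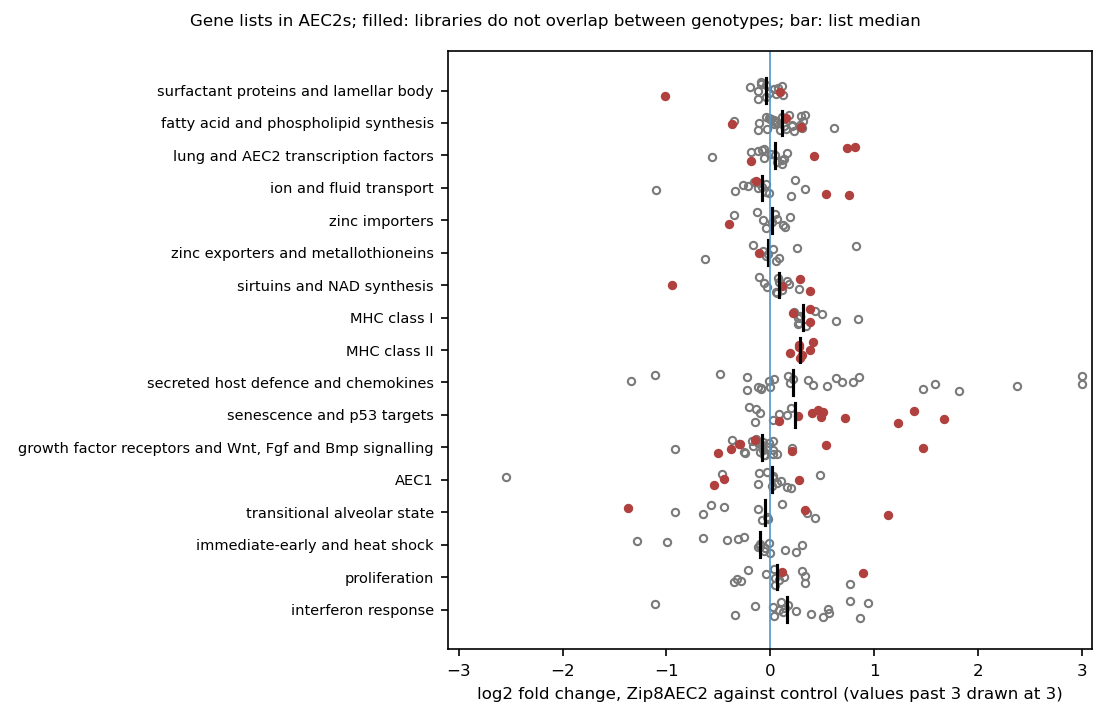
Log2 fold change of every tested gene of 17 lists in AEC2s, Zip8AEC2 against control, with filled points where the 2 groups of libraries do not overlap and a bar at each list's median; values past 3 are drawn at 3. All class II points are filled and lie between 0.19 and 0.42, and the senescence and p53 list holds 10 filled points on the higher side.

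Markers of other cells differed between the groups beside these results. All 6 club markers were higher in Zip8AEC2 AEC2s with a median log2 fold change of 0.48, which became −0.029 when Scgb1a1-rich members were left out. All 5 ciliated markers tested were higher, 3 of them without overlap, with a median of 0.35, and of 0.39 without Scgb1a1-rich members. All tested endothelial (5), fibroblast (5), and pericyte and smooth muscle (4) markers were lower, with medians of −0.71, −0.89, and −1.07, and the fibroblast list summed to 171.2, 312.2, 185.7, and 136.7 plain CPM in control AEC2s and to 66.9 and 112.2 in Zip8AEC2 AEC2s. Its most abundant gene was Dcn, and Col1a2 was at 0 by the gate. Erythroid markers had a median of −2.80 and summed to 266.0, 226.4, 14.7, and 2424 against 102.4 and 91.9. None of these markers was called, and their part in the other differences was not tested. In summed counts, fewer transcripts per cell and fewer cells of a kind cannot be told apart. For Sftpc the shares of cells with a UMI do not separate them either. It is a gate gene, and most control cells of the endothelial and fibroblast gates also held a UMI of it. For Esr1 the shares are given above.

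Barcodes were shared between libraries. Of the 11414 AEC2s, 5325 (46.7%) carried a barcode sequence that also occurred in another library, 377 were members in another library too, and 747 were held with more UMIs by another library. Sharing was not particular to AEC2s. It held for 3765 of 7301, 5020 of 9507, 4556 of 7366, and 2275 of 8679 kept barcodes in control libraries 1 to 4. In Zip8AEC2 libraries 1 and 2 it held for 2914 of 5903 and 2561 of 5340. With all shared barcodes left out, 7 genes were called between the genotypes, among them all 5 given above, and the log2 fold change of Sftpc was −0.88.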

How the data were processed

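The deposited files were gene by barcode matrices of UMI counts for 6 libraries, made by the authors with Cell Ranger 3.1.0 per the file headers and, per the study's methods, aligned to mm10. The counts are not normalized, and barcodes were used as deposited. Barcodes were gated as described above, and no cell annotation was used. Counts of members were summed by library, so that libraries and not cells were the replicates (4 controls, 2 Zip8AEC2). Genotypes were compared with edgeR 4.0.16 (R 4.3.3) by the quasi-likelihood test after filterByExpr and TMM scaling, and p-values were adjusted by the Benjamini-Hochberg method across every tested gene, with a threshold of 0.05. SE were taken as the log2 fold change over the root of F. Differences of genotype effects between gates were fitted as interactions. Single values were compared by a two-sided exact permutation test over 15 arrangements. DESeq2 1.42.0, other scalings, barcode filters, gates, thinning, and leaving out each library were alternatives.

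Doublets were not called, and leaving out members over 3 times the median UMIs was an alternative. Intervals cover the spread between libraries or counting error only, and summed depth of 8722626 to 36696425 UMIs per library limits low genes. The members and gene lists were chosen with earlier results of these data known. Named genes were the 20 with the highest median fold, the 10 with the highest SD between controls, those past the threshold, Slc39a8, Chil1, and H2-K1, and of each list the 2 to 4 genes at the highest level in control members. Other list genes named as examples, Cdkn1a, Phlda3, 9030617O03Rik, and the leaving out of members rich in Scgb1a1 or held with more UMIs by another library were chosen after values were seen. The steps were tested on simulated data. Some genes that meet these rules are not reported here.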

Additional observations from a re-analysis of the deposited data

Results flagged for a closer look

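Of 19 groups of 4 control values checked with Dixon's test, 4 held a library far from the others, and chance marks about 1 in 20 groups. Slc39a8 was low in control library 3 at 188.8 CPM, with a gap of 0.851 of the range. Hbb-bs, Hba-a1, and Hbb-bt were high in control library 4 at 1411, 624.4, and 231.6 CPM, with gaps of 0.901, 0.864, and 0.913 of the range. The 3 haemoglobin genes came from the same library and are not independent of each other. They were named for the highest SD between these same 4 values, so the chance rate does not apply to them.

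The genotype effect differed between AEC2s and another gate of the same libraries for Esr1 and Bmp1, by a test of the difference itself (the values of Cdkn1a and Phlda3 are given above). For Esr1 the effect in AEC2s minus that in the endothelial gate was 5.93 on the log2 scale, whereas the 5.66 against the fibroblast gate did not pass (edgeR adjusted p = 0.105). For Bmp1 the effect in AEC2s minus that in the fibroblast gate was 2.20. No gene was called in that comparison under 8 of 15 alternatives.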

How the results depend on the processing

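The fits of Sftpc, Bmp1, and Esr1 kept their direction and stayed past the threshold under every alternative run (22 for each gene, of which the gate on all 4 markers and that without Sftpc hold the same cells), Esr1 at 4.93 to 7.79. The share of AEC2s differed by 8.86 to 19.9 percentage points over 16 alternatives, and its exact test cannot pass the threshold. The 5 calls of edgeR became 84 with DESeq2, 9 with no filter on low counts, 8 with total UMIs as scaling, 8 with Scgb1a1-rich members left out, and 5 to 205 when 1 library was left out, the highest without Zip8AEC2 library 2 and 8 without control library 4. All 5 genes were among the calls except with at least 2 markers (4, Spink5 at −1.04, adjusted p = 0.0861) and in the replicate block. In that fit, with the replicate number as a block, 50 genes were called, 27 higher and 23 lower, and Gt(ROSA)26Sor was at 1.18 (adjusted p = 0.0575). Only 2 numbers are shared by both groups, and their deviations correlated at −0.035 and 0.27, so they were not taken as pairs. Slc39a8 changed sign without passing the threshold, to 0.0027 with Scgb1a1-rich members left out, 0.0054 with members over 3 times the median UMIs left out, 0.095 with thinning, and 0.054 with shared barcodes left out. H2-K1 ranged from −0.20 without Zip8AEC2 library 1 to 0.75 without library 2, and Chil1 from 0.70 to 2.45, with 0.85 in the replicate block.

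The 18 genes whose effect differed from the endothelial gate became 222 with no filter on low counts, 7 with shared barcodes left out, 10 with the stricter barcode filter, and 9 to 76 when 1 library was left out (9 without Zip8AEC2 library 1, 76 without library 2). The 2 against the fibroblast gate became 4 with no filter and 0 with the looser filter, the stricter filter, total UMIs, or barcodes held with more UMIs elsewhere left out, and 0 to 8 when 1 library was left out (0 without any control, 8 without Zip8AEC2 library 2). In these edgeR fits with 0 calls 850 to 1215 genes had an unadjusted p under 0.05. The 9 genes at least 4-fold higher than in other kept barcodes became 158 against barcodes with at most 1 marker, 266 at 2-fold, 33 with all 4 markers, 18 with the stricter filter, 122 with shared barcodes left out, 51 with Scgb1a1-rich members left out, and 9 to 57 when 1 control was left out (57 without control library 1). The cause of these changes was not tested. Low genes such as Esr1 in controls rest on few UMIs.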
